A study of Oryza sativa with 3 samples.

Results

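The miRNA populations of dry rice embryos (0 h after imbibition, 0 HAI) and of embryos imbibed for 12 h (12 HAI) were compared. Of the 290 mature sequences in the deposited tables of known and of predicted miRNAs, all but 1 carried a name and were compared, each counted once. They were 59 known miRNAs of 42 families and 230 predicted miRNAs, which the tables name OsmiR. The 2 libraries belong to a series of 3, whose last library was from 24 HAI. All embryos came from de-hulled seeds of Oryza sativa Nipponbare without any transgene or added hormone. The 0 HAI embryos were dissected from seeds that had not been imbibed, and the 12 HAI embryos from seeds kept in distilled water at 30 °C in the dark. Per the study's methods, RNA of 4 plates of 50 seeds was mixed before each library was made. Each time point was thus 1 pooled library, so no value has a replicate spread, no p-value is given, and every ratio compares 2 libraries. The tables hold only miRNAs, and the tissue label was not checked against marker genes.

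Plant miRNAs are cut from the stem of hairpin transcripts in the nucleus. One strand, the guide, is loaded into an Argonaute protein and directs cleavage or translational repression of complementary mRNAs, and the strand from the opposite arm is usually degraded. Guides that start with U are mostly loaded into AGO1, whereas longer sequences, many of which start with A, are mostly loaded into AGO4 and direct DNA methylation. In a germinating seed the embryo goes from a desiccated, quiescent state to renewed metabolism and growth, during which regulators of embryo maturation and dormancy give way to those of growth.

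The sequences on which the comparison turned are given first, 5′ to 3′ with T for U as in the deposited tables. Capitals mark the seed, bases 2 to 8. The first set holds the 6 miRNAs with most reads at 12 HAI, all of which were among the 7 with most reads at 0 HAI. osa-miR159b and osa-miR159f share a seed, while the seeds of the 2 miR156 sequences are offset because osa-miR156abcei starts later on the hairpin.
osa-miR319b: tTGGACTGaagggtgctccct
osa-miR156dj: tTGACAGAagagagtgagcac
osa-miR156abcei: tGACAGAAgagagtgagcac
osa-miR159b: tTTGGATTgaagggagctctg
osa-miR159f: cTTGGATTgaagggagctct
osa-miR168a: tCGCTTGGtgcagatcgggac

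The second set holds known miRNAs that were higher at 12 HAI on both scales used below. The first 8 belong to the 7 families called on both scales, and the last 3 come from the arm opposite the usual guide of miR156, miR160 and miR169.
osa-miR1428e: tAAGATAAtgccatgaatttg
osa-miR1432: aTCAGGAGagatgacaccgaca
osa-miR1320-5p: tGGAACGGaggaattttatag
osa-miR1320-3p: tGTAAAATtcattcgttccaa
osa-miR1866: tGAAATTCctgtaaaattcttgtg
osa-miR531c: cTCGCCGGggctgcgtgccgcc
osa-miR528: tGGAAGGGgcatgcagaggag
osa-miR827: tTAGATGAccatcagcaaaca
osa-miR160ab: gCGTGCAAggagccaagcatg
osa-miR169c: gGCAAGTCtgtccttggctac
osa-miR156l: gCTCACTTctctttctgtcagc

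The third set holds the OsmiR sequences with the 8 highest ratios among those with at least 100 reads over both libraries, none of which shared its seed with another of the miRNAs compared.
OsmiR-101: aAAATATAtagaacataagagtcc
OsmiR-49: cATGGTATtgacttggctcatc
OsmiR-38: gGGAAATGctagaatgacttacac
OsmiR-203: aCATGTGGtgagcttacgatg
OsmiR-124: gGAATGGAtgcgtagagaaaga
OsmiR-68: gCTCACTGctctgtctgtcatc
OsmiR-122: aTCGGAGGccatggtgcagcc
OsmiR-230: cCAAATTCccaacttttcatc

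The last set holds the only 2 miRNAs that were called lower at 12 HAI in TPM, that is, reads per 1000000 genome-mapped reads.
ptc-miR6478: cCGACCTTagctcagttggt
OsmiR-201: tCTTTGGCattctgtccacct

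In all, the miRNAs had 247 different seeds, of which 34 were shared by 76 sequences.

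The miRNAs had 285143 reads in the dry embryo and 634097 after 12 h, of 19203513 and 22332607 genome-mapped reads. The share of miRNAs in the mapped reads was 1.48% in the dry embryo (Wilson 95% interval 1.48–1.49) and 2.84% after 12 h (2.83–2.85), a ratio of 1.91 (exact 95% limits 1.90–1.92). Known miRNAs and OsmiR sequences were higher by a like factor, 1.92 (1.91–1.93) and 1.80 (1.77–1.84). Without OsmiR-201 the latter ratio was 2.04 (2.00–2.08). Intervals and limits here and below cover counting error only, because each time point had 1 library. They treat reads as independent, which reads amplified by PCR are not, so they may be too narrow even for counting error. In whole embryos, a change in the share of cells that make a miRNA and a change in its amount per cell cannot be told apart.

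Reads were found for 58 known miRNAs and 219 OsmiR sequences at 0 HAI, and for 59 and 228 at 12 HAI. The median miRNA had 16 reads in the dry embryo and 37 after 12 h, and 112 and 52 miRNAs, respectively, had fewer than 10 reads. A single read corresponded to 0.0521 TPM at 0 HAI and 0.0448 TPM at 12 HAI. A count of 0 allows up to 3 reads, which is 0.156 and 0.134 TPM. Known miRNAs were read much more deeply than OsmiR sequences, with medians of 188 against 12 reads at 0 HAI and of 483 against 27 reads at 12 HAI.

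Each miRNA was compared on 2 scales, in TPM and as its share of the summed miRNA reads, since the higher total is part of every TPM ratio. A miRNA was called higher or lower at a ratio of at least 2 or at most 0.5 with 95% limits on that side of 1. In 282 miRNAs at least 1 library had more than 3 reads. Of these, 76 were called higher at 12 HAI in TPM (27.0%), 24 of them known and 52 OsmiR, and 2 were called lower (0.709%). As shares of the miRNA reads, 25 were called higher (8.87%), 11 known and 14 OsmiR, and 9 were called lower (3.19%). All 25 were also among the 76. The median ratio was 1.77 in TPM and 0.926 as a share, which is a log2 shift of 0.82 and −0.11. The miRNAs just inside and just outside the 2-fold threshold in TPM had ratios of 2.01 and 1.98, and 32 ratios of 2 or more were not called because their limits reached 1.

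**Figure D1:**
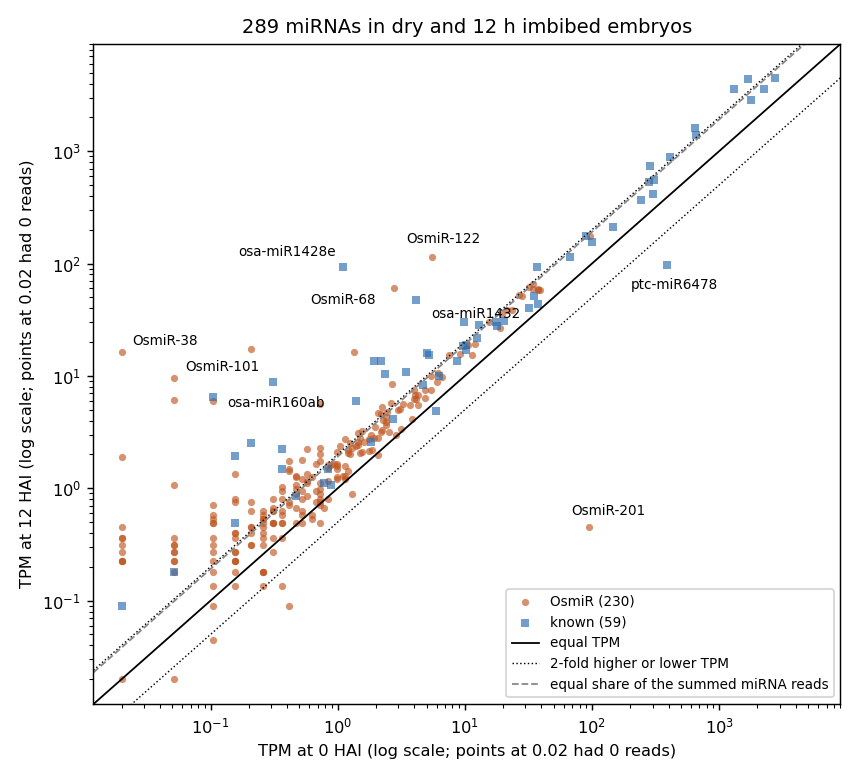
TPM of the 59 known and 230 predicted miRNAs in the 0 HAI library (x axis) and the 12 HAI library (y axis), both on log scales, with known miRNAs as squares and OsmiR sequences as circles; points placed at 0.02 had 0 reads. Of the 282 miRNAs with more than 3 reads in a library, 262 lie above the line of equal TPM and 117 above the dashed line of equal share of the miRNA reads, at a ratio of 1.91, while OsmiR-201 and ptc-miR6478 lie far below both and osa-miR1428e, OsmiR-122 and OsmiR-38 far above.

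Among the known families, 41 of 42 had more than 3 reads in a library. The point ratio was above 1 in 40 of the 41 in TPM, and the limits lay above 1 in 36. Called higher in TPM were 18 families (43.9%), and 1 was lower (2.44%). As shares of the miRNA reads, the same 41 families were split into 20 above and 21 below 1. On this scale 7 families were called higher (17.1%) and 1 lower (2.44%). The 7 families were miR1428, miR1432, miR1320, miR1866, miR531, miR528 and miR827. Of these, miR1432 had the largest share of the miRNA reads in the dry embryo, 0.0281%. The lower family was miR6478.

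**Figure D2:**
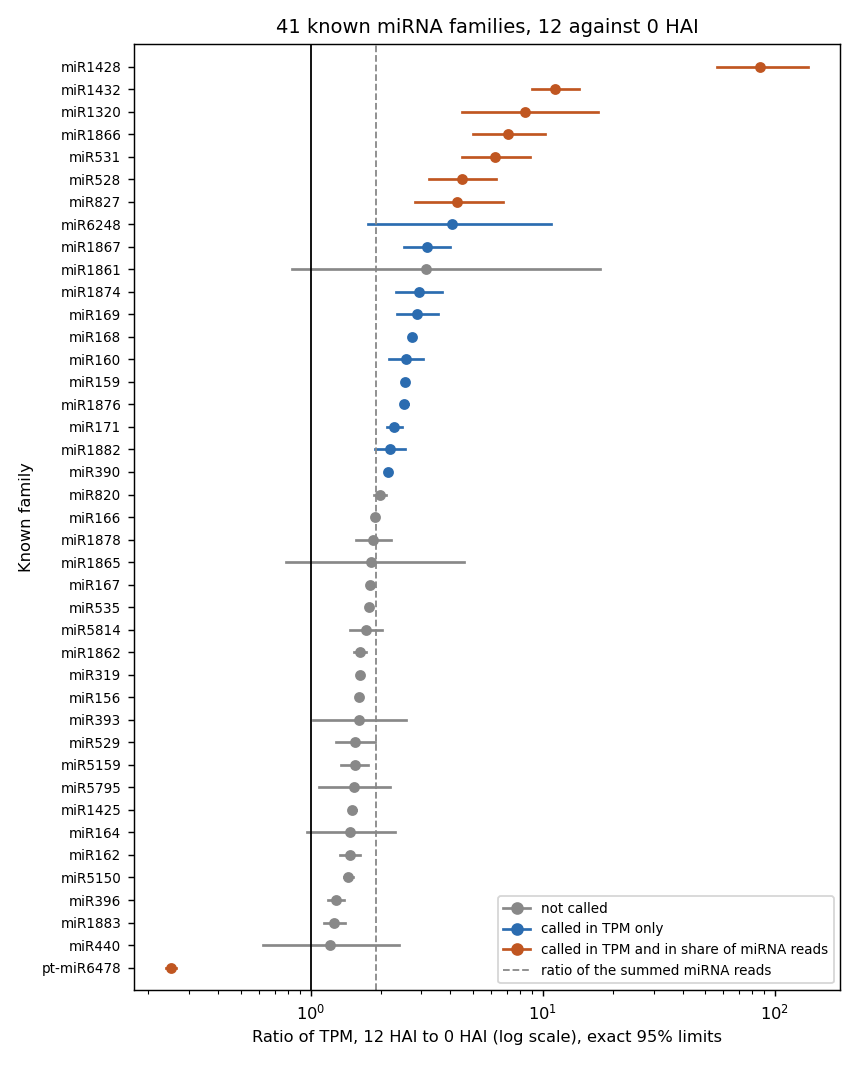
Ratio of TPM at 12 HAI to 0 HAI (log scale) of the 41 known families with more than 3 reads in a library, with exact 95% limits that cover counting error only. Families in orange were called on both scales and run from miR827 at 4.27 to miR1428 at 86.0, with miR6478 alone on the low side at 0.250; the dashed line is the ratio of the summed miRNA reads, 1.91.

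The 5 most abundant families made up most of the miRNA reads in both libraries, and their order changed. miR156, which represses SPL transcription factors and keeps plants in the juvenile phase, had 76992 reads at 0 HAI and 144947 at 12 HAI. It was 1.62-fold higher in TPM (1.60–1.63) but went from 27.0% to 22.9% of the miRNA reads. miR319, which targets TCP transcription factors of leaf growth, had 52560 and 99260 reads. Its ratio was likewise 1.62 (1.61–1.64), and its share went from 18.4% to 15.7%. The 2 most abundant families of the dry embryo thus had lower ratios than the miRNA total.

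miR159, which targets the GAMYB genes of gibberellin signalling, had 44965 reads at 0 HAI and 133229 at 12 HAI. It was 2.55-fold higher (2.52–2.58), and its share went from 15.8% to 21.01%. miR168, which targets AGO1, the Argonaute that carries most miRNAs, had 25313 and 80512 reads. It was 2.74-fold higher (2.70–2.77) and went from 8.88% to 12.7% of the miRNA reads. As shares, these families were 1.33-fold and 1.43-fold higher, so that neither was called on that scale although the limits lay above 1. At 24 HAI, miR159 had 133853 reads and miR168 102284 of 590212 miRNA reads in all. miR166, which targets the HD-ZIP III genes of meristem and leaf polarity, had 18774 and 41395 reads and kept its share at 6.58% and 6.53%.

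**Figure D3:**
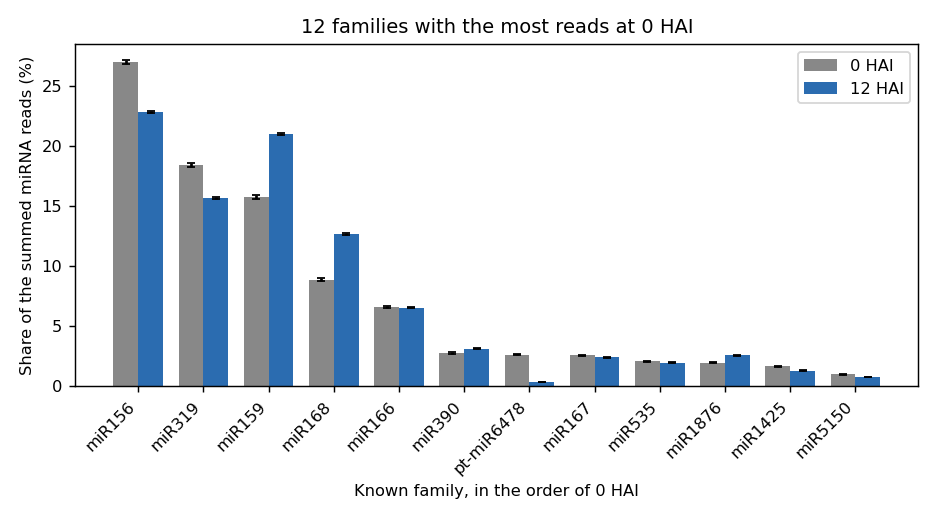
Share of the summed miRNA reads (%) of the 12 known families with the most reads at 0 HAI, in the 0 HAI library (grey) and the 12 HAI library (blue), with Wilson 95% intervals as error bars. The bars of miR159 and miR168 are taller at 12 HAI, at 21.01% and 12.7%, those of miR156 and miR319 are lower, at 22.9% and 15.7%, and miR6478 goes from 2.61% to 0.341%.

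Among single sequences, osa-miR319b had the most reads in both libraries. osa-miR159b moved from rank 4 to rank 2 and osa-miR168a from rank 5 to rank 3, while osa-miR156dj moved from rank 2 to rank 4. The concentration of reads changed little, because the 5 most abundant miRNAs held 65.7% of the miRNA reads at 0 HAI and 66.6% at 12 HAI. Larger steps were seen further down the order, where osa-miR1428e moved from rank 130 to 21, OsmiR-122 from 58 to 18 and OsmiR-68 from 81 to 25, and ptc-miR6478 moved from rank 9 to 20.

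The SPL regulators miR156, miR529 and miR535 comprised 5 sequences, of which 1 was called higher in TPM, beside 27.0% of all miRNAs, and their median ratio was 1.63 against 1.77 for all 282 miRNAs. osa-miR156dj had 43067 and 80489 reads (ratio 1.61), osa-miR156abcei 33922 and 64415 (1.63), osa-miR535 5913 and 12305 (1.79) and osa-miR529a 167 and 302 (1.56). The share ratios of these 4 lay between 0.813 and 0.936. The exception was osa-miR156l, which had 3 reads at 0 HAI and 43 at 12 HAI and is described with the opposite strands below.

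Of the GAMYB and TCP regulators, both miR159 sequences were called in TPM and osa-miR319b was not. osa-miR159b had 32567 and 97416 reads, a ratio of 2.57 (2.54–2.60), and osa-miR159f, which shares its seed, had 12398 and 35813, a ratio of 2.48 (2.43–2.54). The miR159 and miR319 guides are alike in sequence but differ in their seeds, and their reads diverged. Of the families that act on the miRNA pathway itself, miR168 was called as described, whereas miR162, which targets the processing enzyme DCL1, had 672 and 1154 reads, a ratio of 1.48 (1.34–1.63), and a share ratio of 0.772.

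Of the 7 auxin-related sequences, 2 were called higher in TPM (28.6%), a share near the 27.0% of all miRNAs. osa-miR390, which triggers the ta-siRNAs that act on auxin response factors, had 7882 and 19755 reads, a ratio of 2.16 (2.10–2.21), and osa-miR160ab is an opposite strand. The guide osa-miR160e, which targets auxin response factor genes directly, had 185 and 413 reads and a ratio of 1.92 (1.61–2.30). miR167, which targets another group of auxin response factors, had 7292 and 15320 reads in its 2 sequences and a ratio of 1.81 (1.76–1.86). miR393, directed at the auxin receptor genes, had only 31 and 58 reads, and a ratio of 1.61 (1.02–2.57).

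For the HD-ZIP III regulators, 3 of the 4 miR166 sequences were called higher in TPM, beside 27.0% of all miRNAs and 41.4% of the known ones. None of the 4 was called as a share of the miRNA reads. osa-miR166l, the most abundant, had 12677 and 31191 reads, a ratio of 2.12 (2.07–2.16). osa-miR166e had 188 and 681 reads (3.11, 2.65–3.68) and osa-miR166j 66 and 242 (3.15, 2.39–4.205), and osa-miR166i had 5843 and 9281 (1.37, 1.32–1.41). The near equal shares of the family at both times were therefore the sum of unlike members. osa-miR166j and osa-miR166l have the same seed, and their limits did not overlap.

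Of the regulators of NAC, GRAS and GRF transcription factors, 1 of 7 sequences was called in TPM (14.3%), beside 27.0% of all miRNAs and 41.4% of the known ones. This was osa-miR171i, a sequence of the family that targets GRAS genes of the scarecrow-like type, with 710 and 2084 reads and a ratio of 2.52 (2.32–2.75), against 1.67 (1.399–1.99) for osa-miR171bcde with 195 and 378 reads. osa-miR396a and osa-miR396b, which target growth-regulating factors, had 391 and 694, and 717 and 966 reads. Their ratios of 1.53 (1.35–1.73) and 1.16 (1.05–1.28) were among the lower ones of the known miRNAs. miR164, which targets NAC genes, had 36 and 62 reads in all, too few to place its ratio of 1.48 (0.967–2.30) above or below 1.

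The families known for mineral nutrition were scarce in the dry embryo. osa-miR827, which in rice targets SPX-MFS phosphate transporter genes, had 27, 134 and 118 reads at 0, 12 and 24 HAI. In TPM it went from 1.41 to 6.0, a ratio of 4.27 (2.81–6.71). osa-miR528, which targets copper proteins such as ascorbate oxidase, had 45, 234 and 327 reads. It went from 2.34 to 10.5 TPM, a ratio of 4.47 (3.24–6.30), and both were also called as shares, at 2.23 and 2.34. osa-miR395m, of the family that targets sulfate assimilation and transport genes, had 0, 2 and 36 reads at 0, 12 and 24 HAI, so that no ratio between the first 2 libraries could be given.

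Of the 9 sequences of grass or rice families of 20 to 22 nt, 6 were called in TPM, beside 41.4% of the known miRNAs and 27.0% of all. As shares 5 were called, beside 11 of 58 known miRNAs and 8.87% of all. Their median ratio of 6.14 was that of osa-miR1320-3p, with 7 and 50 reads, and 5 of the 9 had at least 100 reads. The highest ratio of all known miRNAs was that of osa-miR1428e. osa-miR1428e had 21, 2100 and 2228 reads at 0, 12 and 24 HAI. It went from 1.09 to 94.0 TPM, a ratio of 86.0 (56.1–139), and its share was 44.97-fold higher. osa-miR1428e maps to an exon at chr3:23076880-23076971 on the plus strand (MSU 7.0, hairpin coordinates of the deposited table). osa-miR1432, which in rice targets an acyl-CoA thioesterase gene of grain filling, had 80, 1052 and 1157 reads. It went from 4.17 to 47.1 TPM, a ratio of 11.3 (9.003–14.4), and its share was 5.91-fold higher. Its hairpin lies in an exon at chr7:23401706-23401804 on the minus strand.

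osa-miR531c had 42, 304 and 72 reads at 0, 12 and 24 HAI, so it was high in the middle library only, with a ratio of 6.22 (4.497–8.81). Its seed is shared by OsmiR-150, with 0, 10 and 13 reads, and OsmiR-151, with 3, 18 and 14 reads. Both arms of the miR1320 hairpin were called. osa-miR1320-5p had 4, 57 and 57 reads (12.3, 4.53–46.5) and osa-miR1320-3p 7, 50 and 28 (6.14, 2.77–16.1), and the limits of the 2 arms overlapped. osa-miR6248 rose from 7 to 33 reads, a ratio of 4.05 (1.76–10.9), and was called in TPM only. In the same group, osa-miR1425, which targets pentatricopeptide repeat genes, had 4681 and 8218 reads and a ratio of 1.51 (1.46–1.57), osa-miR5795 had 52 and 93 (1.54, 1.08–2.20), and osa-miR1861g had 3 and 11 (3.15, 0.833–17.6).

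Of the 15 known sequences of 23 or 24 nt, 5 were called higher in TPM (33.3%), with a median ratio of 1.73, between the 27.0% of all miRNAs and the 41.4% of the known ones. osa-miR1866 had 37, 304 and 121 reads at 0, 12 and 24 HAI, a ratio of 7.07 (5.01–10.2), and was the one called as a share (3.69). The other 4 were osa-miR1867 with 97 and 357 reads (3.16, 2.52–4.003), osa-miR1874 with 100 and 340 (2.92, 2.33–3.69), osa-miR1876 with 5539 and 16335 (2.54, 2.46–2.61) and osa-miR1882e with 250 and 636 (2.19, 1.89–2.54). osa-miR1876 was by far the most abundant of the 15. osa-miR1883a, with 614 and 901 reads (1.26, 1.14–1.400), and osa-miR5150, with 2800 and 4734 (1.45, 1.39–1.52), had lower ratios than the miRNA total.

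Of the 15 known sequences of 23 or 24 nt, 12 had limits above 1. The limits included 1 for osa-miR440, with 17 and 24 reads (1.21, 0.625–2.41), and osa-miR1865, with 9 and 19 (1.82, 0.783–4.56). One sequence of this length had a ratio below 1. osa-miR1862d had 114, 109 and 111 reads at 0, 12 and 24 HAI, which is 5.94 and 4.88 TPM in the first 2 libraries. Its TPM ratio of 0.822 (0.626–1.08) was not called, and its share was called lower at 0.430. The other miR1862 sequences behaved like most miRNAs, since osa-miR1862abc had 1294 and 2534 reads (1.68) and osa-miR1862e 337 and 668 (1.70). osa-miR820abc, a sequence of 22 nt encoded in CACTA transposons that targets a DNA methyltransferase gene, had 1719 and 3968 reads and a ratio of 1.98 (1.88–2.10), just under the threshold.

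ptc-miR6478, a sequence of 20 nt named after poplar, was the one known miRNA called lower in TPM. It had 7441, 2165 and 1119 reads at 0, 12 and 24 HAI. In TPM it went from 387 to 96.9, a ratio of 0.250 (0.238–0.262), which is 3.997-fold lower, and its share of the miRNA reads was 7.64-fold lower. In the dry embryo this sequence was more abundant than every miRNA of the miR167, miR171 and miR396 families. It maps to an intergenic position at chr8:5862004-5862069 on the plus strand. Its sequence holds the box A consensus, the internal promoter element of tRNA genes, on the printed strand. The consensus was searched on both strands and found in none of the other named sequences (0.346% matched in all). The match is a description, and whether these reads came from a miRNA or from a tRNA was not tested, so the label is uncertain wherever its values are given.

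Within families the ratios of the members were compared by their limits, which cover counting error only. Of 12 families with more than 1 mature sequence, the limits of the lowest and the highest member lay apart in 9 and overlapped in 3, which were miR1320, miR164 and miR393. This count depends on read depth. Limits lay apart in miR159 at ratios of 2.48 and 2.57, but overlapped in miR164 at 1.42 and 3.44. The same count was not made for sequences of different families. The widest gaps were between guides and the strands opposite to them. osa-miR160ab had 2, 146 and 69 reads at the 3 time points, a ratio of 62.8 (17.1–523) beside 1.92 for the guide osa-miR160e. osa-miR169c had 6, 199 and 355 reads (28.5, 12.9–78.6) beside 120, 223 and 985 reads for the guide osa-miR169ijkmq (1.60, 1.27–2.01), which like others of its family targets NF-YA genes. osa-miR156l had 3, 43 and 151 reads (12.3, 3.94–62.1) beside 1.61 for osa-miR156dj. These 3 sequences were thus scarce in the dry embryo and were called on both scales, and they do not come from the same precursors as the guides they are set beside.

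Opposite arms of 1 hairpin could be compared where an OsmiR precursor overlapped a known precursor. There were 13 such overlaps, including the 2 arms of miR1320, and in 10 of them an OsmiR sequence came from the arm opposite a known miRNA. Of the 9 with more than 3 reads in a library, 5 OsmiR sequences were called higher in TPM and 2 as shares, beside 52 (23.2%) and 14 of all 224 OsmiR sequences with more than 3 reads. Their share of the reads of both sequences was higher at 12 HAI in 7 pairs and lower in 2. The intervals of the share at 0 and 12 HAI lay apart for OsmiR-68 alone. In the miR156, miR167, miR169 and miR171 pairs the known reads are shared by several precursors, so this share is not that of 1 hairpin. The median ratio was 3.13 for the 9 OsmiR sequences with a ratio and 1.62 for the known miRNAs of all 10 pairs.

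OsmiR-68 lies opposite osa-miR156abcei in the MIR156i hairpin, at chr2:24119995-24120082 on the minus strand. It had 53, 1355 and 1594 reads at 0, 12 and 24 HAI, whereas osa-miR156abcei had 33922, 64415 and 57524. OsmiR-68 was 21.98-fold higher in TPM at 12 HAI (16.7–29.5) beside 1.63-fold (1.61–1.65). It went from 0.156% (0.119–0.204) to 2.06% (1.95–2.17) of the reads of both, although the reads of osa-miR156abcei are shared by 5 precursors and cannot be assigned to this hairpin alone.

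Among the other hairpins, OsmiR-111, opposite osa-miR393a, had 11 and 50 reads, a ratio of 3.91 (2.01–8.33), beside 16 and 33 reads. It held 40.7% of the reads of both at 0 HAI (24.5–59.3) and 60.2% at 12 HAI (49.5–70.1), so that the intervals overlapped. OsmiR-93, opposite osa-miR440, had 14 and 51 reads beside 17 and 24, OsmiR-198, opposite osa-miR1862e, had 2 and 16 beside 337 and 668, and OsmiR-55, opposite osa-miR156dj, had 22 and 61 beside 43067 and 80489. These 3 were called in TPM. OsmiR-44 and OsmiR-126 in miR167 hairpins, OsmiR-87 in MIR171b and OsmiR-131 in MIR1425 had at most 18 reads in a library and were not called. OsmiR-52 in MIR169m had no read in either library and 8 at 24 HAI. OsmiR-74, which lies in the MIR169j hairpin on the arm also given for osa-miR169ijkmq, had 1, 24 and 103 reads, a ratio of 20.6 (3.37–849). OsmiR-88, on the strand opposite MIR156b, had 3 and 6 reads.

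**Figure D4:**
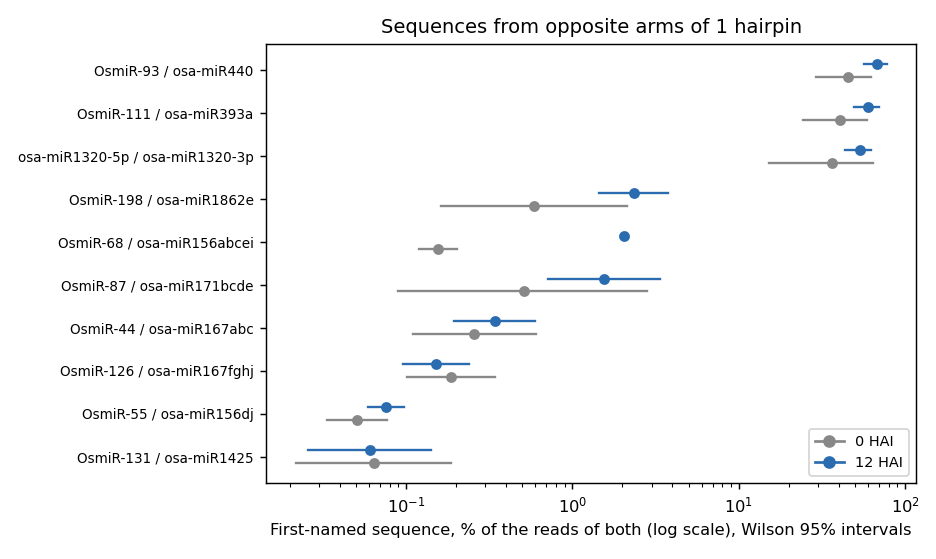
For 10 hairpins with sequences from both arms, the percent of the reads of both sequences (log scale) that belonged to the first-named one in the 0 HAI library (grey) and the 12 HAI library (blue), with Wilson 95% intervals. In the miR156, miR167 and miR171 pairs the known reads are shared by several precursors. OsmiR-68 beside osa-miR156abcei, at 0.156% and 2.06%, is the one pair of an OsmiR and a known miRNA whose intervals lie apart.

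The OsmiR sequences had 16013 reads at 0 HAI and 33600 at 12 HAI, or 5.62% and 5.30% of the miRNA reads. Of the 224 with more than 3 reads in a library, 52 were called higher in TPM and 1 lower, with a median ratio of 1.72 against 1.88 for the known miRNAs. The 5 with most reads over both libraries were OsmiR-156 with 1850 and 3893 reads (1.81), OsmiR-122 with 106 and 2556, OsmiR-50 with 664 and 1473 (1.91), OsmiR-86 with 725 and 1338 (1.59) and OsmiR-26 with 744 and 1290 (1.49). Apart from OsmiR-122, these abundant sequences had ratios no higher than that of the miRNA total.

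Several OsmiR sequences were almost absent from the dry embryo and well detected after 12 h. OsmiR-38, of 24 nt from an intron at chr4:11882258-11882351 on the minus strand, had 0, 366 and 356 reads at 0, 12 and 24 HAI. Its TPM ratio was 105 with the 0 HAI count set to the floor of 3 reads. This ratio leaves out the counting error at 12 HAI and is not a lower limit. OsmiR-101, of 24 nt and intergenic, had 1, 215 and 214 reads, a ratio of 185 (32.8–7336). OsmiR-49, of 22 nt and intronic, had 1, 137 and 56 reads, a ratio of 118 (20.8–4687), and OsmiR-124, of 22 nt and intergenic, had 2, 134 and 154, a ratio of 57.6 (15.6–481). With so few reads at 0 HAI, the limits of these ratios span more than an order of magnitude. OsmiR-203, of 21 nt from an exon at chr11:959571-959801 on the minus strand, had 4, 391 and 288 reads and a ratio of 84.1 (32.6–310).

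Sequences with more reads at 0 HAI were measured more precisely. OsmiR-122, of 21 nt from an exon at chr1:8729125-8729253 on the plus strand, had 106, 2556 and 1825 reads at 0, 12 and 24 HAI. It went from 5.52 to 114 TPM, a ratio of 20.7 (17.1–25.4), and became the second most abundant OsmiR sequence at 12 HAI. OsmiR-230, also exonic and of 21 nt, had 26, 361 and 370 reads (11.9, 8.01–18.5), and OsmiR-7, exonic and of 21 nt, had 14, 126 and 75 (7.74, 4.45–14.6). OsmiR-100 with 51 and 188 reads (3.17), OsmiR-185 with 43 and 117 (2.34) and OsmiR-222 with 40 and 104 (2.24) completed the 12 highest ratios among the 66 OsmiR sequences with at least 100 reads, and these 3 were called in TPM but not as shares. The 100 reads were counted over both libraries. OsmiR-38, OsmiR-49, OsmiR-101, OsmiR-124 and OsmiR-203 passed only through their reads at 12 HAI, so this ranking favours sequences that were higher there.

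In all, 11 miRNAs had no read at 0 HAI and some at 12 HAI, and 1 had a read at 0 HAI only. Of the 11, 9 had no more than 10 reads at 12 HAI. The 3 with most reads were OsmiR-38, OsmiR-148 with 42 (ratio 12.0) and OsmiR-150 with 10 (ratio 2.87). These ratios set the 0 HAI count to 3 reads and leave out the counting error at 12 HAI, so they are not lower limits. OsmiR-46, OsmiR-137 and OsmiR-142, with 7, 8 and 8 reads at 12 HAI, were also called in TPM, at the floor of 3 reads. The remaining 5 were not called. Per the study's methods, a predicted miRNA needed a minimum of reads in at least 1 library. An OsmiR sequence without a read at 0 HAI could therefore enter through a later library.

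OsmiR-201 was the one OsmiR sequence called lower in TPM, among 18 with a ratio below 1. It had 1821, 10 and 4 reads at 0, 12 and 24 HAI. In TPM it went from 94.8 to 0.448, a ratio of 0.004722 (0.00226–0.00870), which is 212-fold lower. In the dry embryo it held 11.4% of all OsmiR reads and was exceeded among them only by OsmiR-156, and at 12 HAI it held 0.0298%. Its hairpin lies in an exon at chr2:27148164-27148255 on the plus strand. The next lowest ratios among OsmiR sequences with at least 100 reads were near 1, namely OsmiR-36 with 55 and 67 reads (1.05), OsmiR-13 with 61 and 76 (1.07), OsmiR-106 with 74 and 93 (1.08), OsmiR-8 with 49 and 71 (1.25) and OsmiR-189 (1.28). The limits of all 5 included 1.

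Besides OsmiR-201, 6 OsmiR sequences were called lower as a share of the miRNA reads only. They were OsmiR-66 with 40 and 44 reads, OsmiR-177 with 25 and 20, OsmiR-228 with 15 and 15, OsmiR-35 with 14 and 11, OsmiR-116 with 8 and 2 and OsmiR-65 with 7 and 3. In TPM the limits of each included 1.

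The ratios are also given by class of sequence, as a description, and are to be read against the 23.2% of OsmiR sequences and 41.4% of known miRNAs called higher in TPM. Among OsmiR sequences of 20 to 22 nt, 16 of 42 were called higher in TPM with a median ratio of 2.06, and among those of 23 and 24 nt, 36 of 182 with a median of 1.72. Known sequences of 20 to 22 nt had 19 of 43 called and a median of 1.98. The 24-nt OsmiR sequences that start with A, the form typical of AGO4 cargo, had 26 of 131 called and a median of 1.72, which is 19.8% and near the share of all OsmiR sequences. By location, 7 of 18 exonic, 15 of 46 intronic and 30 of 160 intergenic OsmiR sequences were called, with medians of 2.22, 1.99 and 1.67. OsmiR sequences at a single genome position had 44 of 172 called (25.6%), and those at several positions 8 of 52 (15.4%). The median reads over both libraries were 35 for OsmiR sequences of 20 to 22 nt and 40 for the longer ones, and the part of depth in these differences was not tested.

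Among the known miRNAs, 18 of 30 sequences from the 3′ arm were called higher in TPM and 6 of 28 from the 5′ arm, with medians of 2.50 and 1.78, beside 41.4% of all known ones. The OsmiR sequences did not share this difference, with 27 of 120 called from the 3′ arm and 25 of 104 from the 5′ arm. Their medians were 1.67 and 1.82. Over known and OsmiR sequences together, 30.0% from the 3′ arm and 23.5% from the 5′ arm were called, with medians of 1.72 and 1.81. All 4 known miRNAs that start with G were called, and they were the 3 opposite strands and osa-miR1882e. The share of sequences starting with G in the miRNA reads was 0.271% (0.252–0.290) at 0 HAI and 0.611% (0.592–0.630) at 12 HAI, whereas that of sequences starting with T was 83.0% and 82.7%. The 24 sequences starting with G had only 772 and 3874 reads. OsmiR-68 alone had 53 and 1355 of these and OsmiR-38 had 0 and 366, so single members weigh heavily on this share. By length, 20-nt sequences went from 18.9% to 16.1% of the miRNA reads, 21-nt sequences from 70.3% to 72.6% and 22-nt sequences from 2.84% to 3.26%. The 24-nt sequences, 189 in number, held 7.85% of the reads in both libraries.

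**Figure D5:**
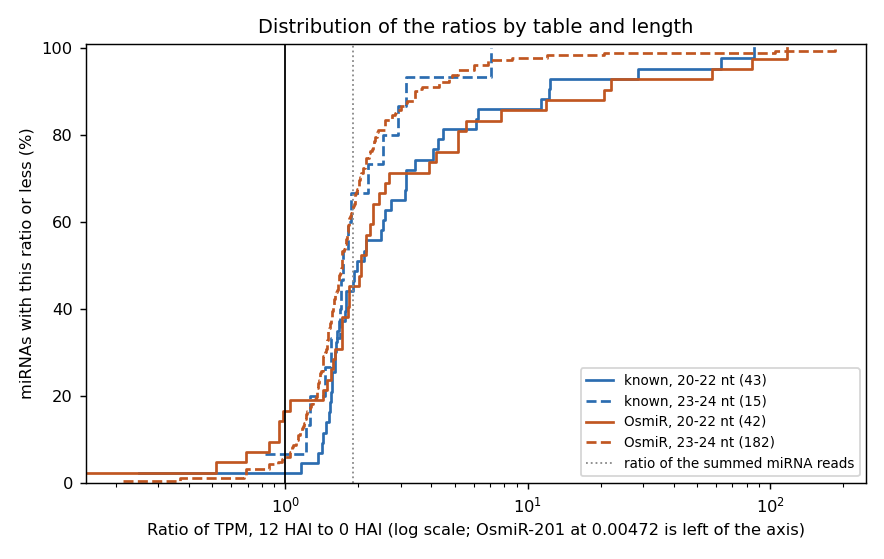
Cumulative percent of miRNAs (y axis) at or below each ratio of TPM, 12 HAI to 0 HAI (x axis, log scale), by table and length, for the 282 miRNAs with more than 3 reads in a library. The curves of the 20–22 nt sequences, with medians of 1.98 (known) and 2.06 (OsmiR), have upper quartiles of 3.75 and 4.12, and those of the 23–24 nt sequences, with medians of 1.73 and 1.72, have upper quartiles of 2.36 and 2.20.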

How the data were processed

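Small RNAs of rice embryos were sequenced from 1 pooled library per time point. The authors kept reads of 18–30 nt, mapped them with Bowtie to MSU 7.0, discarded matches to structural RNAs (Rfam 11), matched the rest to miRBase 21 with up to 2 mismatches and predicted further miRNAs with miRDeep2. Predicted miRNAs also had to reach a minimum of reads in at least 1 library. The read counts were deposited by the authors without normalization. The deposited TPM values equal these counts per 1000000 genome-mapped reads, from which the mapped reads were recovered. Coordinates and locations are those of the deposited tables. The 407 precursor rows (83 known, 324 predicted) were reduced to 290 mature sequences, each counted once, and the first of 2 identical copies of the known table was read. A sequence carried the same reads in every precursor row, so its reads cannot be divided among precursors.

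The 0 and 12 HAI libraries were grouped by their labels. Ratios of 12 to 0 HAI have exact conditional 95% limits, and shares have Wilson 95% intervals. A count of 0 was set to 3 in ratios, and no ratio was formed where both libraries had 3 reads or fewer. With 1 library per time point no count model could be fitted. edgeR 4.0.16 and DESeq2 1.42.0 (R 4.3.3) gave scaling factors only. Ratios were computed with scipy 1.17.1, pandas 2.3.3 and numpy 2.4.6 under Python 3.11.15, and plotted with matplotlib 3.10.9. Alternatives were 4 other denominators, filters of 10 and 100 reads, a 3-fold threshold, limits wholly past 2-fold, the fold alone, each table alone, every row counted and the total without the 5 most abundant miRNAs.

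The families and lists were chosen with earlier results of these data known. Named were all families of the lists, known miRNAs called on either scale, the 12 highest and 6 lowest OsmiR ratios at 100 or more reads, the 5 most abundant OsmiR sequences, those overlapping known precursors, and the 3 with most reads among sequences with 0 reads in a library. The 6 OsmiR sequences lower as a share only, OsmiR-46, OsmiR-137, OsmiR-142 and OsmiR-151, and the search for box A were added after their values were seen.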

Additional observations from a re-analysis of the deposited data

Results flagged for a closer look

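Among the predicted miRNAs, a single 20-nt sequence carries no name and was left out of the comparison. It was read nonetheless, with 39 reads at 0 HAI and 83 at 12 HAI, both above the 3 reads that a count of 0 allows. Its TPM ratio was 1.83 (exact 95% limits 1.24–2.75), and it was listed with 2 precursors.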

How the results depend on the processing

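Over mapped reads without structural RNA, 65 miRNAs were called higher and 2 lower, and 18 families higher. The 76 miRNAs called higher in TPM became 25 over the summed miRNA reads, 26 with TMM factors of edgeR and 26 with size factors of DESeq2, and the 2 called lower became 9, 7 and 7. The 18 families called higher became 7, 8 and 8. The last 3 scalings moved the median log2 ratio from 0.82 to −0.11, 0.02 and 0.01, and assume that the miRNA total or most miRNAs did not change. They turned 20, 15 and 15 of the 41 family ratios to the other side of 1, none of them called in TPM. Of the 76, 36 had at least 100 reads, 36 had limits wholly past 2-fold, 42 passed a 3-fold threshold and 24 were known miRNAs. By the fold alone, 4 miRNAs were lower in TPM, and 40 were higher and 17 lower as a share. Of the 25 called higher as a share, 11 were known and 14 OsmiR. Of the 9 called lower as a share, 3 had at least 100 reads, 4 passed 3-fold, 2 had limits wholly past 2-fold and 2 were known. The 2 called lower in TPM were 1 known miRNA and 1 OsmiR. The ratio of the miRNA share was 1.79 over mapped reads without structural RNA, 1.80 with every row counted and 1.87 without the 5 most abundant miRNAs. It was 1.97 without OsmiR-201 and ptc-miR6478, an alternative chosen after seeing the data. No paired analysis was possible because each time point had 1 library, and for the same reason no replicate could be left out. Differences between 2 pooled libraries include those of RNA extraction, ligation and amplification, whose size is unknown here, and below about 10 reads the limits were wide.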
